A study of Mus musculus with 2 samples.

Results

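Lyz2+ mature Ccr7+ dendritic cells are spleen cells that carried the transcripts of a matured dendritic cell, Ccr7 and Fscn1, together with Lyz2, the lysozyme gene of myeloid cells. They were chosen from raw UMI counts (unique molecular identifiers, counted transcripts) among barcodes with at least 500 genes and at most 10% mitochondrial UMIs. A member had at least 1 UMI of Ccr7, at least 3 of Fscn1, fewer than 5 of S100a4 and at least 3 of Lyz2, and none of Il12b, Cd79a, Nkg7 or C1qa. These criteria gave 312 members of 9934 kept cells, 148 among the 4086 L-cDC cells and 164 among the 5848 M-cDC cells. The cells of the same gate with at most 2 Lyz2 UMIs, 1806 in L-cDC and 2416 in M-cDC, are called Lyz2-low mature cells. Because measured Lyz2 chose the members, each difference between members and Lyz2-low cells below is a description with no test.

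The series used droplet RNA sequencing of the spleen of naive mice, 7 to 9 weeks old and kept specific-pathogen-free, whose genotype Il7r-cre; Rosa26-lsl-tdTomato both groups share. In such mice Cre made from the Il7r locus switches on red tdTomato for good, so that descendants of Il7r-expressing lymphoid progenitors stay marked. Splenocytes were enriched for CD11c with magnetic beads and sorted into tdTomato+ cells (L-cDC) and tdTomato- cells (M-cDC), with 1 library each. The number of mice is not given in the sources used here, the mark records a history of Cre and not present Il7r, and the shares below are of sorted cells, not of the spleen. With 1 library per group no difference has a replicate check, and all intervals are 95% intervals that cover counting error only. The libraries held 4939 and 6674 barcodes with 40170515 and 52973960 UMIs. They shared 6 barcodes, and none of them (0) was a member. Members had a median of 9259 UMIs in L-cDC and 9507 in M-cDC, against 8110 and 7171.5 in Lyz2-low cells.

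Dendritic cells mature when they stop sampling antigen and move to the T cell zones of lymphoid tissue. They then raise CCR7, the receptor for the chemokines of those zones, and fascin, the actin-bundling protein encoded by Fscn1, and lower the uptake machinery of the resting state. Lysozyme M, made from Lyz2, cuts bacterial cell walls and is best known from macrophages, monocytes and neutrophils, and some resting dendritic cells carry it too. Lyz1, its neighbour and near copy, is best known from the Paneth cells of the gut.

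The bases upstream of the lysozyme genes are shown because Lyz2 defined the members and Lyz1 went with it in part of them only. Both genes lie on the minus strand of chromosome 10 in GRCm38, Lyz2 (ENSMUSG00000069516) at chr10:117277331-117282321 and Lyz1 (ENSMUSG00000069515) at chr10:117287797-117292868. The stretches run 5′ to 3′ from base 250 to base 51 before the RefSeq start (GRCm38.p6), Lyz2 at chr10:117282323-117282522 and Lyz1 at chr10:117292919-117293118. Capitals mark the bases that differ from, or are missing in, the other gene, 50 in each.
Lyz2: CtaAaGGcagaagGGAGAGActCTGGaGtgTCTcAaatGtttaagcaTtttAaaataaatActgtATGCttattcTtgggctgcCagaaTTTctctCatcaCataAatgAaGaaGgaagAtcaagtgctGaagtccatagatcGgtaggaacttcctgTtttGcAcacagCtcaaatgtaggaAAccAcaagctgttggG
Lyz1: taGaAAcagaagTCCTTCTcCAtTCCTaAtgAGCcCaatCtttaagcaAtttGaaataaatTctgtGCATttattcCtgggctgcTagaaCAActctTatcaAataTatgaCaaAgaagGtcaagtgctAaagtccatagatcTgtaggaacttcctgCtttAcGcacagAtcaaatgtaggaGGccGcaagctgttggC
They were identical at 150 of 198 aligned bases (75.8%), and the 50 bases nearest the start, not printed, were identical. Both strands of the 300-base RefSeq windows were searched for 4 motifs that may overlap each other. These were GAGGAA, the core of PU.1 sites, present in 28.3% of 32851 windows, TTGCNNAA, a C/EBP motif, in 10.8%, an NF-kB motif of GGG and CC spaced by 5 bases of any kind, in 50.8%, and TGANTCA, an AP-1 motif, in 7.81%. The Lyz2 window held none of them, and the Lyz1 window held 1 C/EBP match, 202 to 209 bases before the start, whose last base is one of the capitals. Of the other marker genes, the Il1b window (gene at chr2:129364570-129371139, minus strand) held none. The Nid1 window (chr13:13437551-13512269, plus strand) held 1 PU.1, 1 C/EBP and 5 overlapping NF-kB matches. Acp5 (chr9:22126727-22135711, minus strand) has 3 windows, with 0, 2 and 3 NF-kB matches and no other. A stretch that matched on both strands was counted once for each, as happened in Nid1 and in the Acp5 window with 3. Those NF-kB counts thus exceed the number of separate stretches. These are matches of letters, not sites shown to be used.

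The transcripts of Lyz1 and Lyz2 were more alike than their upstream bases. The longest coding transcripts in GENCODE vM21, 1263 and 1316 bases, were identical at 96.0% of 1262 aligned bases. Their last 300 bases, where a 3′ library is read, were 96.9% identical, with a shared run of 104 bases. Reads of the pair may therefore not be fully separable, and each Lyz1 value below is uncertain for that reason.

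Members made up 7.57% of the mature gate in L-cDC (6.44 to 8.84, exact Clopper-Pearson) and 6.36% in M-cDC (5.45 to 7.37). The ratio of the shares was 1.19 (0.948 to 1.497, exact conditional binomial), an interval that includes equal shares. Lyz2 was unevenly spread among the members. The lowest count was 3 UMIs by construction, the median was 10 in L-cDC and 9 in M-cDC, and the highest was 317 and 274. In L-cDC 38 members with at least 30 UMIs held 77.9% of the members' Lyz2 UMIs, and in M-cDC 31 such members held 64.0%. A minority of members thus carried most of the transcript in both libraries. At the threshold, 28 L-cDC and 45 M-cDC cells had 2 UMIs and stayed outside, and 21 and 18 cells had 3 and were inside.

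**Figure D1:**
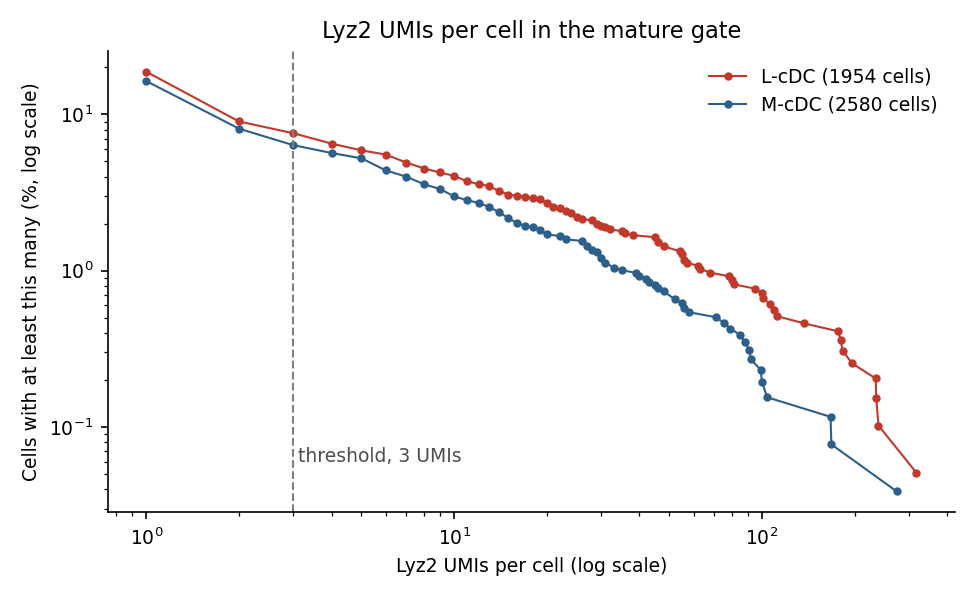
Share of mature-gate cells (percent, log scale) with at least the number of Lyz2 UMIs on the x axis (log scale), for the 1954 L-cDC and 2580 M-cDC cells of the gate; the dashed line marks the threshold of 3 UMIs. Both curves fall without a gap at the threshold and run on to 317 UMIs in L-cDC and 274 in M-cDC.

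Lyz2 summed over members came, in CPM (UMIs per 1000000 UMIs of the class), to 2996 in L-cDC and 1823 in M-cDC, against 15.9 and 16.3 CPM in Lyz2-low cells. Cells that lacked Ccr7 and Fscn1 but passed the other criteria and had 3 Lyz2 UMIs, 67 in L-cDC and 267 in M-cDC, held 1174 and 609 CPM. Resting cDC1, the cross-presenting type of dendritic cell (at least 3 Xcr1 UMIs, no Ccr7, no Fscn1), held 204 CPM in 114 L-cDC cells and 232 CPM in 515 M-cDC cells. Of them 47.4% and 45.2% had at least 3 Lyz2 UMIs at median depths of 16250 and 14772 UMIs. When each cell was thinned to 4000 UMIs these shares were 12.3% and 9.55%, against 69.7% and 67.5% of members. Of 17 B cells in L-cDC 0 had 3 Lyz2 UMIs, which allows a share of up to 17.6% by a limit of 3 counts, and 121 NK cells of L-cDC held 90.0 CPM. The criteria asked for 3 Lyz2 UMIs in the members and in the cells outside the gate but not in cDC1, B or NK cells, so the gap in Lyz2 is a description of that choice. Resting cDC1 and NK cells were not free of Lyz2. Resting cDC1 with at least 3 Lyz2 UMIs could also be counted among the cells outside the gate, since neither set of criteria excluded the other.

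Of the genes that mark the members, Il1b encodes the inflammatory cytokine interleukin 1 beta, Acp5 the tartrate-resistant acid phosphatase of osteoclasts and some macrophages, and Nid1 the basement membrane protein nidogen 1. Il1b was at 228 CPM in members and 61.9 CPM in Lyz2-low cells of L-cDC, 3.69-fold higher (3.26 to 4.17, exact conditional binomial), and at 112 and 49.1 CPM in M-cDC, 2.29-fold higher (1.96 to 2.66). Acp5 was at 280 and 66.7 CPM in L-cDC, 4.20-fold higher (3.75 to 4.70), and at 156 and 46.4 CPM in M-cDC, 3.37-fold higher (2.95 to 3.85). Nid1 was at 83.0 and 24.9 CPM in L-cDC, 3.33-fold higher (2.71 to 4.07), and at 36.8 and 10.3 CPM in M-cDC, 3.58-fold higher (2.69 to 4.73). The 3 genes were thus higher in members of both libraries, but none was in every member. Per cell, Il1b ran from 0 through a median of 110 to 2412 CPM in L-cDC and from 0 through 68.3 to 1118 CPM in M-cDC. Acp5 ran from 0 through 248 to 1284 CPM in L-cDC and from 0 through 72.1 to 1339 CPM in M-cDC. Nid1 was detected in 39.2% and 17.7% of members, so its median was 0, and its highest cells were at 945 and 788 CPM. The ranges of members overlapped those of Lyz2-low cells, since both started at 0.

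With cells thinned to 4000 UMIs, at least 1 of Il1b, Acp5 and Nid1 was found in 77.2% (L-cDC) and 55.0% (M-cDC) of members, against 33.8% and 25.6% of Lyz2-low cells. At least 2 were found in 40.7% and 20.6% of members against 8.18% and 4.98%. All 3 were found together in 11.03% and 3.13% of members against 0.647% and 0.353%. These genes had named the cells from earlier results of these data, so their higher levels are a description and no support for the label. After thinning, most single members lacked at least 1 of the 3.

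Across the range of Lyz2 the markers were highest in the cells richest in it. In L-cDC, Il1b was at 61.2 CPM in cells with no Lyz2 UMI, 120 CPM at 2 UMIs, 167 CPM at 3 UMIs and 416 CPM at 30 or more. In M-cDC it was at 49.2, 61.6, 79.2 and 223 CPM in the same cells. The order was not strict, since L-cDC cells with 10 to 29 Lyz2 UMIs held 111 CPM. Acp5 was at 62.8, 148, 195 and 341 CPM in L-cDC and 44.4, 84.9, 67.9 and 348 CPM in M-cDC at 0, 2, 3 and 30 or more UMIs. Nid1 in the cells with 30 or more reached 136 and 87.1 CPM. In L-cDC, Il1b and Acp5 were thus higher in the 28 cells with 2 Lyz2 UMIs than in cells with no Lyz2, with Il1b found in 11 of the 28. In the 190 L-cDC cells with 1 Lyz2 UMI, Acp5 was at 84.3 CPM, but Il1b was at 59.2 CPM and thus not higher.

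**Figure D2:**
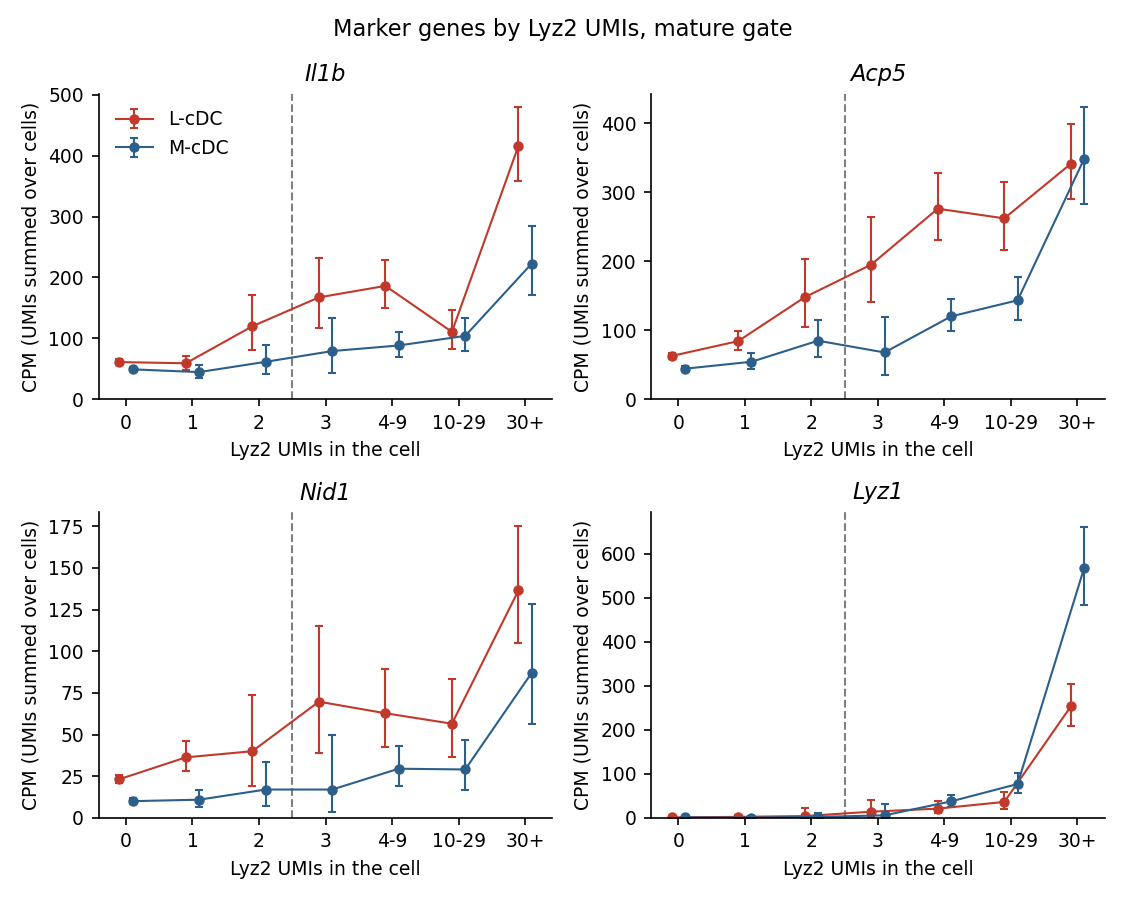
CPM of Il1b, Acp5, Nid1 and Lyz1 (y axis, linear) in mature-gate cells grouped by their Lyz2 UMIs (x axis), with exact Poisson 95% intervals; the dashed line marks the threshold between 2 and 3 UMIs. In both libraries each gene is highest in the cells with 30 or more Lyz2 UMIs.

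Lyz1 was gathered in few members. It was at 90.6 CPM in L-cDC members and 125 CPM in M-cDC members, 82.2-fold (49.6 to 145) and 129-fold (79.8 to 221) above Lyz2-low cells. A UMI of it was found in 27 and 30 members. The members held 3.02 Lyz1 UMIs per 100 Lyz2 UMIs in L-cDC (2.54 to 3.57) and 6.87 in M-cDC (6.01 to 7.83). Of the members without Lyz1, 1 had 235 Lyz2 UMIs in L-cDC and 1 had 104 in M-cDC, while 4 M-cDC members had more Lyz1 than Lyz2. Csf1r, the receptor of macrophage colony-stimulating factor, was at 11.3 and 11.9 CPM in members, and at 30.8 and 66.2 CPM in those with 30 or more Lyz2 UMIs.

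Part of the members carried transcripts of cDC1. Xcr1 or Clec9a, receptors that mark cDC1, gave a UMI in 17 L-cDC members (11.5%) and 49 M-cDC members (29.9%), against 8.64% and 13.5% of Lyz2-low cells. After thinning to 4000 UMIs these shares were 6.21% and 23.8% of members and 4.06% and 8.20% of Lyz2-low cells. Scrublet, which scores how much a barcode resembles a sum of 2 cells, marked 9 L-cDC members (6.08%) and 41 M-cDC members (25.0%) as doublet-like, against 1.77% and 2.52% of Lyz2-low cells. Of the marked members 6 and 35 also had Xcr1 or Clec9a. Members with Xcr1 or Clec9a had a median of 13026 UMIs in L-cDC and 19347 in M-cDC, against 9146 and 8560 in the others. In M-cDC they were at 744 CPM of Naaa, a lysosomal amidase of cDC1, against 15.6 CPM in the other members, and at 1322 against 159 CPM of Irf8, the transcription factor of cDC1. They were lower in the markers of the members, at 55.3 against 163 CPM of Il1b, 16.6 against 54.5 CPM of Nid1 and 843 against 2684 CPM of Lyz2. They had less Ccr7 as well, 689 against 1133 CPM. Whether these barcodes were single cells was not tested further, so the values below are given with and without them where they differ. Without Xcr1 or Clec9a cells and doublet-like cells, 128 L-cDC and 109 M-cDC members remained, called the reduced set.

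Many genes passed a 1.5-fold difference between members and Lyz2-low cells. Among genes with at least 20 CPM in the higher class and 50 UMIs over both, 491 of 4627 were higher (10.6%) and 283 lower (6.12%) in L-cDC, and 787 of 4858 were higher (16.2%) and 360 lower (7.41%) in M-cDC. In both libraries 305 of 4437 genes were higher (6.87%) and 158 lower (3.56%). Another 3 were past it in opposite directions (0.0676%). The medians over all genes considered were 0.03 and 0.07 on the log2 scale. The reduced set had 11.2% of 4608 genes higher and 7.23% lower in L-cDC, and 13.1% of 4672 higher and 10.4% lower in M-cDC. Of the genes that were past 1.5-fold and also considered in the reduced set, L-cDC had 649 of 729 still past it and M-cDC 592 of 905, with 2 and 52 of opposite sign.

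**Figure D3:**
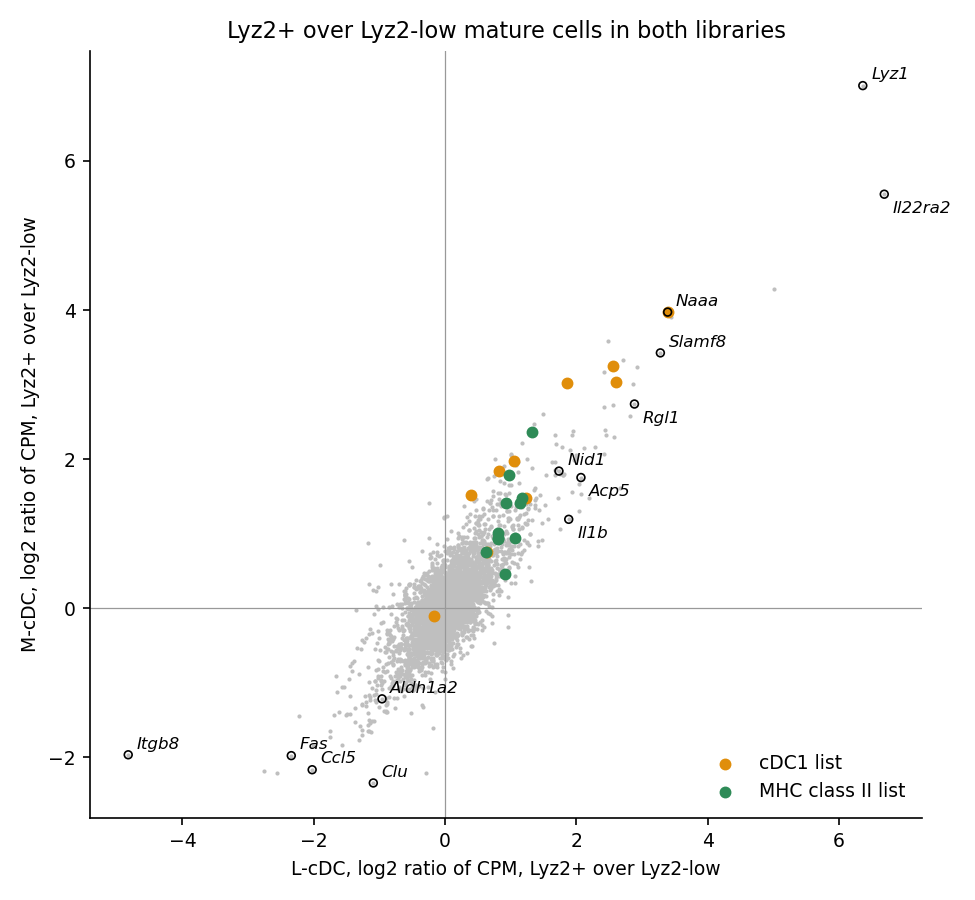
Log2 ratio of CPM, members over Lyz2-low mature cells, in L-cDC (x axis) and M-cDC (y axis), 1 point per gene considered in both, without the genes of the criteria; orange points are the cDC1 list and green points the MHC class II list. Lyz1 lies highest in M-cDC and next to Il22ra2 in L-cDC, Ccl5, Fas and Itgb8 lie low in both, and each of the 10 cDC1 genes has a higher ratio in M-cDC than in L-cDC.

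The 12 leading genes of the members split by their values in the reduced set. Those with log2 ratios above 2 there in both libraries were Lyz1, Slamf8, Havcr2, Rgl1, Ccr9, S100a6 and Plac8. Slamf8, a receptor of the SLAM family on myeloid cells, was at 33.3 against 3.43 CPM in L-cDC and 76.6 against 7.13 CPM in M-cDC, and in the reduced set its log2 ratios were 2.76 and 2.31. Rgl1, an exchange factor for Ral, was 7.38-fold and 6.68-fold higher, with log2 ratios of 2.94 and 3.39 in the reduced set. Ccr9, a homing receptor for the gut also found on plasmacytoid dendritic cells, was at 96.2 against 13.6 CPM and at 72.0 against 11.99 CPM. S100a6, a calcium-binding protein, was at 489 against 83.1 CPM and at 325 against 48.8 CPM. Plac8, found in monocytes and plasmacytoid cells, was at 333 against 62.1 CPM and at 367 against 56.5 CPM. The last 3 kept log2 ratios of 2.37 to 3.18 in the reduced set. Havcr2, the gene of TIM-3, was at 25.2 against 3.30 CPM and at 50.2 against 5.35 CPM, with 2.44 and 2.04 in the reduced set, but -0.11 in L-cDC when cells were thinned before the gate.

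The other 5 of the 12 leading genes had lower log2 ratios in the reduced set, where both cells with Xcr1 or Clec9a and doublet-like cells were left out, and 3 of them, Naaa, Plbd1 and Alox5ap, were still past 1.5-fold in L-cDC. Naaa was at 356 against 22.7 CPM in M-cDC and at 59.8 against 5.70 CPM in L-cDC, and its log2 ratios in the reduced set were 0.35 and 0.73. Ly6e was at 344 against 28.7 CPM in M-cDC, and in the reduced set its log2 ratio was -0.17. Alox5ap, the partner of 5-lipoxygenase, was at 189 against 12.6 CPM in M-cDC and went to -0.054, while in L-cDC it kept 1.22. Wdfy4, needed for cross-presentation, kept 0.45 in L-cDC and 0.58 in M-cDC. Plbd1 was at 325 against 36.0 CPM in M-cDC and kept 0.96 there, also past 1.5-fold, and 1.33 in L-cDC.

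The 12 lowest genes of the members included a chemokine, an integrin chain and a death receptor. Ccl5, a chemokine for T cells and monocytes, was at 1379 against 5605 CPM in L-cDC, 4.07-fold lower (3.90 to 4.24), and at 1332 against 5968 CPM in M-cDC, 4.48-fold lower (4.31 to 4.66). Itgb8, the integrin chain that activates TGF-beta, was at 1.89 against 53.5 CPM in L-cDC, 28.3-fold lower (9.66 to 138) on 3 UMIs, and at 19.2 against 74.7 CPM in M-cDC, 3.90-fold lower. Fas, the death receptor, was at 20.1 against 102 CPM and at 28.99 against 114 CPM. Aldh1a2, which makes retinoic acid and was named for its role, not its rank, was at 136 against 264 CPM and at 164 against 381 CPM. The further genes among the 12 lowest were Cpne8, Scin, Insm1, Insr, Glipr2, Clu, Gbp4, Mir155hg and Pdgfa. Scin, which severs actin, was 5.87-fold and 4.64-fold lower, and Insm1, a zinc finger factor, 4.02-fold and 3.61-fold. Clu, the chaperone clusterin, was 2.13-fold lower in L-cDC and 5.07-fold lower in M-cDC. These are the same cells' readouts as Lyz2, so their order describes the split and tests nothing.

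Of the genes of maturation itself, a minority were lower in the members. Of 29 mature markers considered, 1 was higher and 8 lower in L-cDC (median -0.11) and 0 were higher and 10 lower in M-cDC (median -0.42), beside 10.6% and 6.12% of all genes in L-cDC and 16.2% and 7.41% in M-cDC. The reduced set had 1 higher and 6 lower of 29 in L-cDC and 0 higher and 8 lower of 29 in M-cDC, and both medians were near 0, at -0.069 and -0.037. Beside them, 11.2% of all genes in the reduced set were higher and 7.23% lower in L-cDC, and 13.1% and 10.4% in M-cDC. Serpinb6b, a protease inhibitor, was at 1042 against 1735 CPM and at 960 against 1868 CPM, and Tnfrsf4, the gene of OX40, at 153 against 286 CPM and at 133 against 324 CPM. Against the Lyz2-bearing cells outside the gate, the median log2 ratio of the list was 4.16 in L-cDC and 4.76 in M-cDC, beside 0.0020 and -0.12 over all genes considered, a gap to which the criteria on Ccr7 and Fscn1 led. Those cells were also higher in cDC1 genes than the members, so they are no matched resting form of the members. The 14 regulatory genes had 3 higher and 5 lower in each library, with medians of -0.32 and -0.47. Of 13 in the reduced set 2 were higher and 5 lower in each library, with medians of -0.54 and -0.17, beside the reduced-set shares of all genes given above. Ebi3, a subunit of interleukins 27 and 35, was 2.25-fold and 3.11-fold lower. Il7r was at 282 against 270 CPM in L-cDC and at 204 against 235 CPM in M-cDC. Flt3, a receptor that dendritic cell precursors need, was at 150 against 154 CPM in L-cDC and at 157 against 162 CPM in M-cDC. Zbtb46, a zinc finger factor of the conventional dendritic cell lineage, was at 27.0 against 37.6 CPM in L-cDC and at 37.3 against 41.1 CPM in M-cDC.

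MHC class II genes, whose products present peptides to CD4 T cells, were higher almost throughout. Of 11 considered in L-cDC 11 were higher (median 0.93) and of 12 in M-cDC 11 were higher (median 1.21), and none was lower, beside 10.6% and 16.2% of all genes higher. In the reduced set the medians were 0.77 and 0.99. H2-Ab1, a class II chain, was at 5173 against 2355 CPM in L-cDC and at 5798 against 2179 CPM in M-cDC. Ciita, the factor that switches the class II genes on, was 2.26-fold and 2.78-fold higher.

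Myeloid and monocyte genes were higher in part. Of 12 considered 9 were higher in L-cDC (median 1.10), and of 13 considered 11 were higher in M-cDC (median 1.44), with none lower, beside the same 10.6% and 16.2% of all genes. The reduced set had 7 of 11 higher and none lower in L-cDC and 10 of 12 higher and 1 lower in M-cDC, with medians of 1.03 and 0.98, beside 11.2% and 13.1% of all genes higher. Cebpa, a myeloid transcription factor, was at 51.6 against 19.1 CPM and at 38.8 against 15.6 CPM. Single monocyte genes were low or absent, with Ly6c2 at 0 and 4.66 CPM, Cd14 at 1.26 and 0 CPM, and Fcgr1 at 0 CPM in both. Ccr2, the monocyte homing receptor, was at 11.3 and 84.4 CPM, and was among the genes higher in M-cDC. Gate cells with no Lyz2 UMI, a part of the Lyz2-low cells, were at 2.61 and 3.56 CPM. Against the Lyz2-bearing cells outside the gate Ccr2 was among the genes lower in members of both libraries. In members with 30 or more Lyz2 UMIs 10 of 13 genes of the list were higher in L-cDC (median 1.48) and 16 of 17 in M-cDC (median 2.57). Over all genes 17.3% and 21.8% were higher at that level. The 37 genes of the list summed, without Lyz2, to 2732 and 2760 CPM in members and 1521 and 1314 CPM in Lyz2-low cells, with 8 and 6 at 0 in the members.

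Lysosomal genes were mixed. Of 29 considered 12 were higher and 3 lower in L-cDC (median 0.36), and of 30 considered 13 were higher and 2 lower in M-cDC (median 0.33). Over all genes 10.6% were higher and 6.12% lower in L-cDC and 16.2% and 7.41% in M-cDC. The reduced set had 9 lysosomal genes higher and 3 lower in L-cDC and 11 higher and 5 lower in M-cDC. Over all genes of the reduced set 11.2% were higher and 7.23% lower in L-cDC and 13.1% and 10.4% in M-cDC. Cd68, a lysosomal membrane protein of phagocytes, was 3.76-fold and 4.36-fold higher. Itgax, the gene of CD11c, on which the cells had been enriched, was 4.20-fold and 2.89-fold higher. Pla2g7, which inactivates platelet-activating factor and is 1 of the 3 higher regulatory genes, was at 408 against 178 CPM and at 291 against 154 CPM. Ptafr, the receptor for that lipid, was 4.13-fold and 2.46-fold higher and was counted with the chemokine receptors. Neither belongs to the lipid list. Of 13 and 12 genes of that list considered 4 were higher in each library, Apoe, Plin2, Cd36 and Soat1, and 1 and 2 were lower. The reduced set had 3 lipid genes higher and 1 lower in each library. Immediate early genes, which rise with stimulation and with handling, had 7 of 19 higher and 3 lower in L-cDC and 5 of 19 higher and 1 lower in M-cDC, and Fosb was at 108 against 31.0 CPM and at 84.9 against 24.6 CPM. In the reduced set 6 immediate early genes were higher and 3 lower in L-cDC, and 5 were higher and 1 lower in M-cDC. Subunits and feedback genes of NF-kB had 2 of 21 higher in L-cDC (median 0.09) and 0 of 21 higher and 2 lower in M-cDC (median -0.20), at or below the shares of all genes in the higher direction. The reduced set had 2 higher and 3 lower in M-cDC, and the median turned to 0.031. The list of the IL-1 family had 2 higher of 7 and 2 higher of 6 in the respective libraries, with none lower. In the reduced set it had 2 higher and 1 lower of 7 in L-cDC, and 3 higher and 1 lower of 7 in M-cDC.

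The cDC1 list differed between the full and reduced sets. Of 10 considered 8 were higher in L-cDC (median 1.14), and of 18 considered 17 were higher in M-cDC (median 2.42). In the reduced set 2 of 5 were higher in L-cDC (median 0.27) and 1 of 6 in M-cDC (median 0.10). Over all genes 10.6% and 16.2% were higher in the full sets and 11.2% and 13.1% in the reduced set. Irf8 was at 703 against 245 CPM in M-cDC and at 156 against 198 CPM in the reduced set. The removal picked cells on Xcr1 and Clec9a, so a smaller cDC1 list follows in part from the choice itself. Of 7 cDC2 markers considered 3 were higher and 1 lower in L-cDC (median 0.10), and 4 were higher in M-cDC (median 0.90). The reduced set gave 3 higher and 1 lower of 7 in L-cDC and 3 higher of 6 in M-cDC, with medians of 0.25 and 0.66. The shares of all genes that were higher are those given for the cDC1 list. Lower were 6.12% and 7.41% in the full sets and 7.23% and 10.4% in the reduced set. Sirpa, the cDC2 receptor for CD47, was at 42.8 against 16.5 CPM and at 43.5 against 17.2 CPM, and Irf4, a cDC2 factor, was at 11.95 against 21.3 CPM and at 12.4 against 17.9 CPM.

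**Figure D4:**
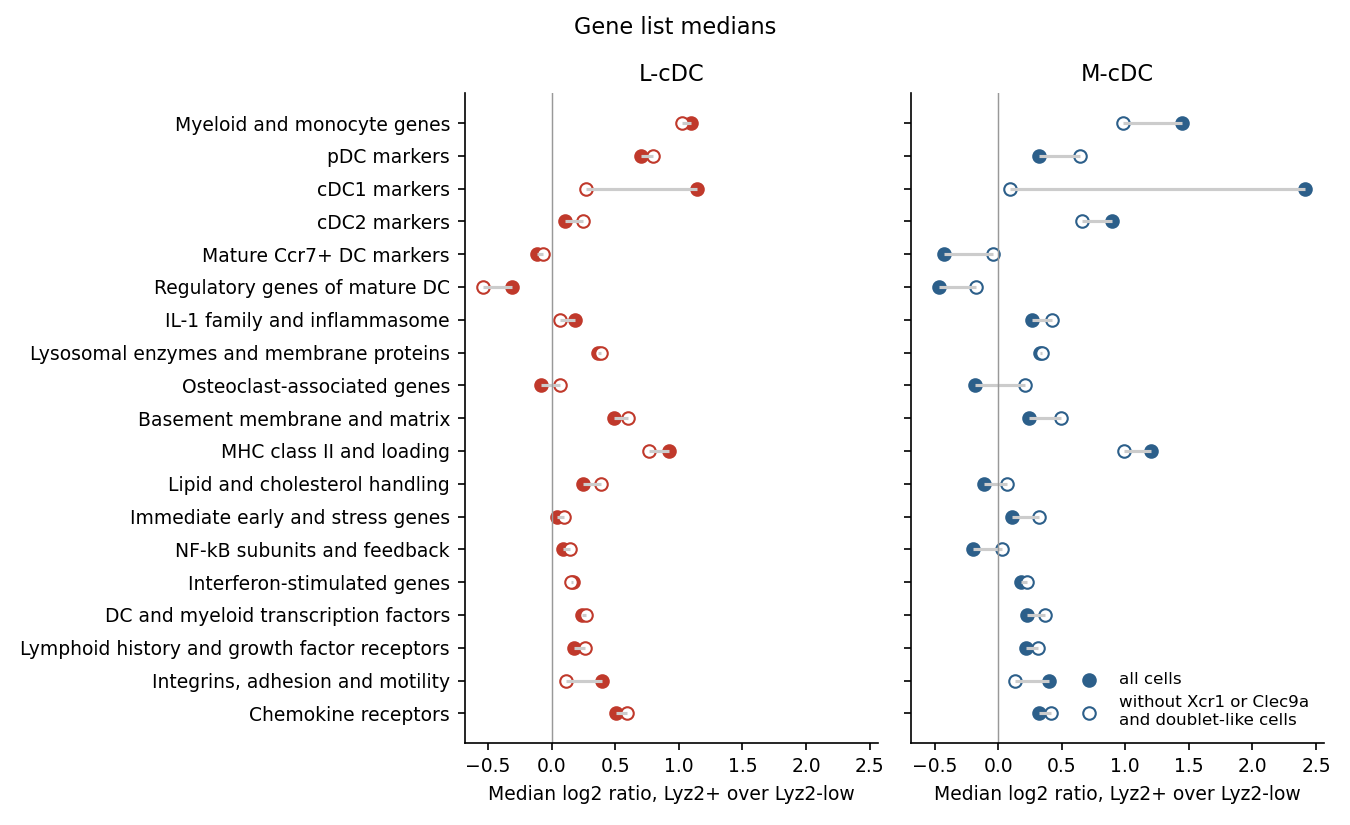
Median log2 ratio of CPM (x axis), members over Lyz2-low mature cells, for the gene lists with at least 5 genes considered, in L-cDC and M-cDC; filled points use all cells and open points leave out cells with Xcr1 or Clec9a and doublet-like cells. The cDC1 median moves from 2.42 to 0.10 in M-cDC, and the MHC class II median stays at 0.77 and 0.99.

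Markers of neutrophils and lymphocytes were low in the members. The 12 neutrophil genes summed to 26.4 and 16.6 CPM in L-cDC and M-cDC members, against 5.18 and 6.32 CPM in Lyz2-low cells, with 10 and 9 at 0, S100a8 and S100a9 among them. The 14 red pulp macrophage genes summed to 128 and 131 CPM against 64.3 and 73.1 CPM, with 6 at 0 in each library. The 10 B cell genes summed to 13.8 and 13.5 CPM against 16.9 and 13.8 CPM, the 10 T cell genes to 52.8 and 5.18 against 12.96 and 12.5 CPM, and the 10 NK cell genes to 93.1 and 96.3 against 72.8 and 65.8 CPM. The 11 genes of plasmacytoid dendritic cells, to which Ccr9 belongs, were not low. They summed to 657 and 477 CPM against 372 and 311 CPM, though Siglech was at 0 CPM in the members. Of 5 considered 3 were higher in L-cDC (median 0.71) and 2 in M-cDC (median 0.32), with none lower, beside 10.6% and 16.2% of all genes higher. In the reduced set 3 and 4 of 5 were higher (medians 0.80 and 0.64), with none lower, beside 11.2% and 13.1%. The part of these cell types in the differences was not tested. Apoe, the lipoprotein of macrophages, was at 143 against 4.47 CPM in L-cDC and at 90.6 against 4.65 CPM in M-cDC, but 1 cell gave 25.0% and 61.1% of its UMIs.

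Between the libraries, the members of L-cDC differed from those of M-cDC at 787 of 4889 genes past 1.5-fold (16.1%), with 215 higher (4.40%) and 572 lower (11.7%) in L-cDC. Lyz2-low cells, counted over more UMIs, had 46 of 4342 (1.06%). In the reduced set 289 of 4007 genes (7.21%) passed, 148 higher (3.69%) and 141 lower (3.52%). Of the genes past 1.5-fold that were considered in both sets, 121 of 370 were still past it and 31 had the opposite sign. Depth differs between the classes, since members are far fewer than Lyz2-low cells, so the counts are not of equal precision.

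Il1b, Acp5 and Nid1 were higher in L-cDC members. Il1b was 2.03-fold higher (1.71 to 2.42), Acp5 1.79-fold (1.54 to 2.08) and Nid1 2.26-fold (1.68 to 3.06). In the reduced set the ratios were 1.43 (1.18 to 1.74), 1.30 (1.10 to 1.53) and 1.66 (1.20 to 2.33), so Il1b and Acp5 were no longer past 1.5-fold, while the counting intervals leave out 1. In Lyz2-low cells the same ratios were 1.26 (1.15 to 1.38), 1.44 (1.31 to 1.58) and 2.43 (2.04 to 2.91), so all 3 genes were also higher in L-cDC outside the members. Whether the ratios of the classes differ was not tested.

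Genes of cDC1 were among those furthest below M-cDC in L-cDC members. Among the 10 lowest were Samd9l at 3.77 against 37.3 CPM, Ccr2, March1 at 6.92 against 43.5 CPM, Cd180 at 5.66 against 34.7 CPM, Cd8a at 10.7 against 65.2 CPM and Naaa, 5.96-fold lower. Cd8a and Naaa are cDC1 genes, Cd180 is a relative of the Toll-like receptors and March1 a ubiquitin ligase that clears class II from the surface. Several of these genes were tied to the cells left out of the reduced set. There, M-cDC members over Lyz2-low cells had log2 ratios of -2.89 for Cd180 and -1.10 for Cd8a. Of 7 chemokine receptors considered between the libraries only Ccr2 was lower in L-cDC, and in the reduced set none of 6 passed in either direction. Of 18 cDC1 genes considered 15 were lower in L-cDC members and none higher (median -1.98). Over all genes 11.7% were lower and 4.40% higher. In the reduced set none of 5 cDC1 genes passed in either direction (median 0.11). Among the 10 highest were Tlr1, a receptor for bacterial lipopeptides, at 28.9 against 8.80 CPM (3.29-fold, 1.85 to 6.12), Pdgfb, a growth factor chain, at 29.6 against 12.9 CPM, Ehf, an ETS factor, at 25.8 against 9.32 CPM, and Sesn2, a stress-induced regulator of growth, at 58.5 against 24.8 CPM. Their log2 ratios in the reduced set were 1.29, 1.63, 0.74 and 0.70. Clu was 4.25-fold higher in L-cDC members (2.31 to 8.34) and kept a log2 ratio of 2.02, and Itgb8 was 10.2-fold lower (3.21 to 51.5). In Lyz2-low cells Clu was likewise higher and Itgb8 likewise lower in L-cDC, so neither direction is particular to the members. Il7r was 1.38-fold higher in L-cDC members and equal in the reduced set, at a log2 ratio of 0.00.

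**Figure D5:**
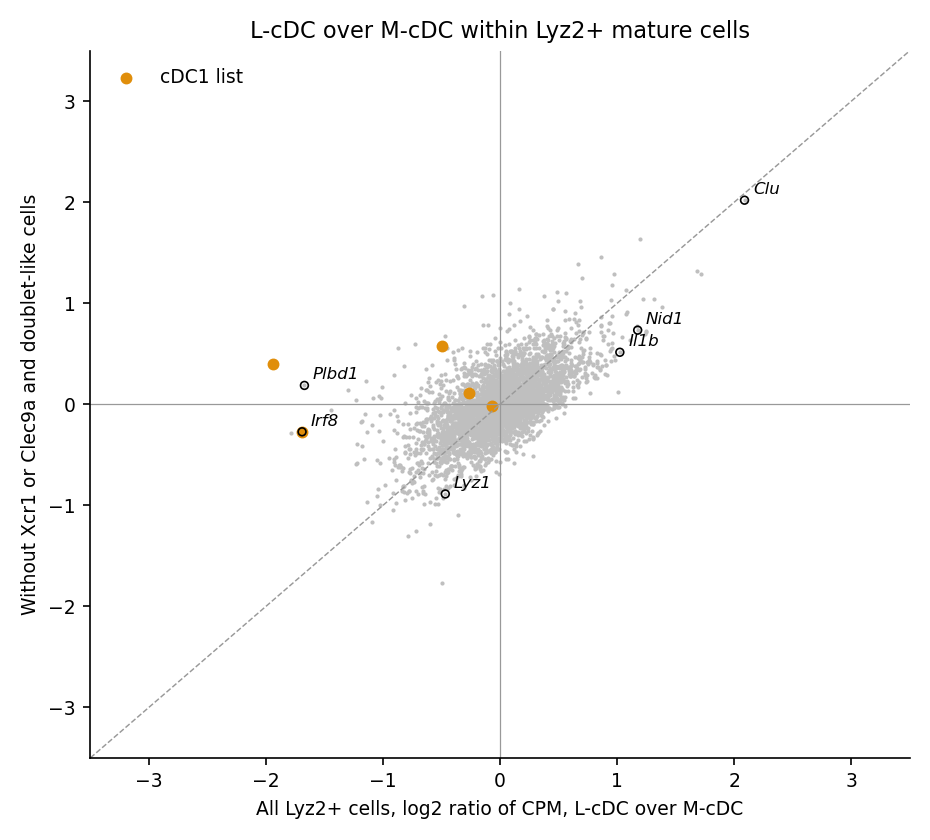
Log2 ratio of CPM, L-cDC over M-cDC members, in all members (x axis) and without cells with Xcr1 or Clec9a and doublet-like cells (y axis), 1 point per gene; the dashed line marks equality and orange points are the cDC1 list. The 5 cDC1 genes considered in both sets lie left of zero on the x axis, Irf8 at -1.69, and Irf8 lies at -0.27 on the y axis, while Il1b and Nid1 stay above zero on both.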

How the data were processed

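The authors deposited raw counts of UMIs for every gene and barcode, from Cell Ranger 6.1.2 per the file headers, on GRCm38 (mm10) per the submitters' processing notes; the chemistry was 10x 3′ per the labels' protocols. The other deposited files list barcodes and gene names. No column was left out (0). Counts were summed per class and library and scaled to CPM, with a floor of 3 counts where a class had none. Doublets were scored per library with Scrublet in scanpy (expected rate 0.08). It set a threshold of 0.655 in L-cDC, marking 1 cell, and 0.290 in M-cDC, marking 262; the lower was applied to both after seeing this, and doublet-like cells stay in the members except in the reduced set. The members and lists were chosen with earlier results of these data known.

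Named genes were the 12 highest and 12 lowest of the genes past 1.5-fold the same way in both libraries and the 10 highest and lowest between the libraries with an interval leaving out 1, where no cell gave over 20% of the UMIs, and up to 4 genes of each list with the largest mean ratio, plus a fixed set. The genes of the criteria, unnamed gene models, antigen receptor, ribosomal protein, hemoglobin, mitochondrial and sex-linked genes were not named by rank. Intervals were checked on simulated Poisson sums only. Those sums leave out the clustering of UMIs by cell, so the check cannot show how the intervals hold for genes gathered in few cells. The tools were scanpy 1.11.5, biopython 1.88, scipy 1.17.1, matplotlib 3.10.9, pandas 2.3.3 and numpy 2.4.6 under Python 3.11.15.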

Additional observations from a re-analysis of the deposited data

Results flagged for a closer look

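3 genes were past 1.5-fold in opposite directions in the 2 libraries, members against Lyz2-low mature cells; the difference between the libraries was not tested, and they were chosen after their values were seen. Ifi27l2a, an interferon-induced gene, was at 10.1 against 22.6 CPM in L-cDC (log2 ratio -1.17) and at 34.2 against 18.7 CPM in M-cDC (0.87). Tet3, an enzyme that oxidises methylated cytosine, was at 10.7 against 21.3 CPM in L-cDC (-0.99) and at 37.8 against 25.2 CPM in M-cDC (0.59). Vamp3, a vesicle fusion protein, was at 13.2 against 20.3 CPM in L-cDC (-0.62), a ratio of 0.651 on 21 UMIs whose interval of 0.397 to 1.01 includes no difference, and at 40.4 against 21.4 CPM in M-cDC (0.92). They made up 0.0676% of the 4437 genes considered in both libraries.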

How the results depend on the processing

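No paired analysis was possible because the labels give 1 library per group and no replicate numbers. The 2 alternatives with the reduced set and with Lyz2 of at least 30 UMIs were chosen after seeing the data. The share of members in L-cDC and M-cDC was 5.89% and 5.23% at 5 Lyz2 UMIs, 4.04% and 2.98% at 10, 1.94% and 1.20% at 30 (a ratio of 1.62) and 4.69% and 3.83% with cells thinned before the gate, and in M-cDC 4.96% without doublet-like cells and 5.04% in the reduced set. The count of genes past the fold, members against Lyz2-low cells, was 1426 in L-cDC with cells thinned before the gate, 1889 in L-cDC and 2474 in M-cDC at a minimum of 5 CPM, 364 and 524 at 50 CPM, 269 and 476 at 2-fold, and 1404 and 1897 at 30 Lyz2 UMIs. The count between the libraries was 340 without doublet-like cells, 442 at 10 Lyz2 UMIs, 134 thinned before and 297 thinned after the gate, 244 at 50 CPM, 233 at 2-fold, 289 in the reduced set and 211 at 30 Lyz2 UMIs. Of the named genes and lists past 1.5-fold, these changed sign between members and Lyz2-low cells. Without doublet-like cells Cd180 in M-cDC was -1.52. Thinned before the gate, Havcr2 was -0.11 and the cDC1 median -0.017 in L-cDC, and Cd180 was -1.17 and Cd8a -0.27 in M-cDC. In the reduced set Ly6e was -0.041 in L-cDC, and in M-cDC Alox5ap was -0.054, Ly6e -0.17, Cd180 -2.89, Cd8a -1.10, Rab7b -0.18, Fcgrt -0.64 and Irf8 -0.35. Between the libraries Havcr2 was 0.072, Insr 0.24 and Klf2 0.024 without doublet-like cells, Dalrd3 was -1.93 and Ndrg4 -0.74 thinned before the gate, and Insr was 0.14 thinned after it. In the reduced set Alox5ap was 0.73, Slamf8 0.12, Havcr2 0.085, Ly6e 0.20, Plbd1 0.19, Insr 0.41, Klf2 0.38 and the cDC1 median 0.11. The cause of these changes was not tested; higher CPM and fold minimums leave fewer genes to pass. Of 836 list medians recomputed, 817 moved by less than 1.5-fold, 17 moved by more, and the other 2 began past 1.5-fold and changed sign; sign changes of medians nearer to 0, such as NF-kB in M-cDC, are not among those 2. Of 3076 recomputed ratios of named genes, 2518 stayed within their main interval, 533 left it and 25 are the changes of sign given above. Of 74 recomputed shares, share ratios and gene counts, 28 left their interval or moved by more than 1.5-fold. The depth of 148 and 164 members limits genes under 20 CPM.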

Other observations

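Il22ra2, the soluble receptor that binds interleukin 22, was chosen after its values were seen. It was at 53.5 CPM in L-cDC members and 0.518 CPM in Lyz2-low cells, and at 25.4 and 0.540 CPM in M-cDC. UMIs of it were found in 20 L-cDC and 8 M-cDC members, and 1 M-cDC cell gave 42.9% of them. Ptgs2, the inducible cyclooxygenase, was at 65.4 against 17.2 CPM in L-cDC and at 47.1 against 15.9 CPM in M-cDC. Klf2, a factor of quiescence and trafficking, was at 62.9 against 19.8 CPM and at 111 against 22.04 CPM. Among receptors Lair1, an inhibitory receptor for collagen, was at 89.9 against 28.0 CPM and at 60.6 against 16.7 CPM, and Csf2rb, the shared chain of the GM-CSF receptor, was at 748 against 445 CPM and at 492 against 389 CPM.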
